A study of Drosophila melanogaster with 12 samples.

Results

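The nuclear transcriptome of glia was described from the 4 wild-type libraries alone, out of 12 libraries in the series, which also holds mutants that were not compared here. The 4 libraries were chosen by their genotype label. Each was made from 400 eye-brain complexes (central nervous system with attached eye-antennal discs) dissected from wandering larvae of the third instar of *Drosophila melanogaster*, raised at 25°C. The larvae carried *repo*-GAL4 together with the UAS-GFP-Msp300KASH transgene inserted at attP2, over the balancer TM3, Sb, in a *w* background. Glia thus carried GFP on their nuclear envelope, by which nuclei were enriched before RNA extraction. Glia other than those of the midline express *repo*, so each library is a mixture of subtypes pooled over many animals. The sexes were not separated as far as the sources state.

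Glia of the larval brain fall into classes with different positions and tasks. Perineurial and subperineurial glia form the blood-brain barrier, which the subperineurial glia seal with septate junctions, while cortex glia enwrap cell bodies. Ensheathing glia bound the neuropil and engulf debris, and astrocyte-like glia infiltrate the neuropil and take up neurotransmitters. In the developing visual system, further glia line the eye disc, the optic stalk and the lamina, where photoreceptor axons stop or pass.

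Levels are given on a pair of scales. CPM are read counts scaled by the sum of counts assigned to genes in that library, and they give the share of the library that a gene takes. RPKM divides CPM by the exon length of the gene in kilobases and is used wherever the levels of different genes are set against each other. Values are the mean ± SD over the 4 libraries, and where 4 values follow one another they belong to replicates 1 to 4, whose numbers are only names.

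The libraries held 8535880 to 11459317 counts assigned to genes, so 1 CPM stood for 8.54 to 11.5 reads. Of 15682 gene IDs, 8608 exceeded 1 CPM in all 4 libraries, 5101 exceeded 10 CPM and 64 exceeded 1000 CPM. Among 13285 protein-coding genes of the nuclear genome with an exon length, 7978 (60.1%) exceeded 1 CPM in all 4 libraries and 1566 had no count in any. The median protein-coding gene was at 2.67 RPKM, and the upper percentiles were 10.53 RPKM (75th), 27.6 RPKM (90th) and 186 RPKM (99th). Log2 CPM of the 8608 genes correlated between pairs of libraries with Pearson's r of 0.979 to 0.986, across genes that are not independent. Every pair of libraries differed by more than counting noise, with a median chi-square per gene of 1.92 to 4.63, so all 4 were kept as separate replicates.

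A few rows took a large share of the counts. The 10 most abundant rows held 41.9, 39.3, 33.8 and 36.2% of the gene counts, and the 100 most abundant held 58.8, 57.1, 50.9 and 53.3%. Most of these leading rows are ribosomal or mitochondrial RNA or IDs for which the annotation used here has no entry. Such IDs have no biotype or exon length, so any protein-coding genes among them are missing from RPKM ranks and marker lists. The single most abundant row, FBgn0085742, has no entry in that annotation and took 128598 ± 13910 CPM (SD, n = 4). The large mitochondrial rRNA, *mt:lrRNA*, followed at 95821 ± 6811 CPM, and the 18S rRNA row *18SrRNA:CR41548* stood at 31314 ± 4854 CPM. In the list of the 20 most abundant rows were also 8 further IDs without an entry, among them *CR41583* and *CR41540* as the study's gene tables name them, and the rRNA pseudogenes *18SrRNA-Psi:CR41602* and *2SrRNA-Psi:CR40677*. Reads that align to more than one place were not counted to genes by the authors, so the multicopy rRNA genes are represented only by their distinguishable stretches. The 111 rows of replication-dependent histones, which lie in near-identical repeats, had no count in 102 cases, and none exceeded 1 CPM in all libraries.

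**Figure D1:**
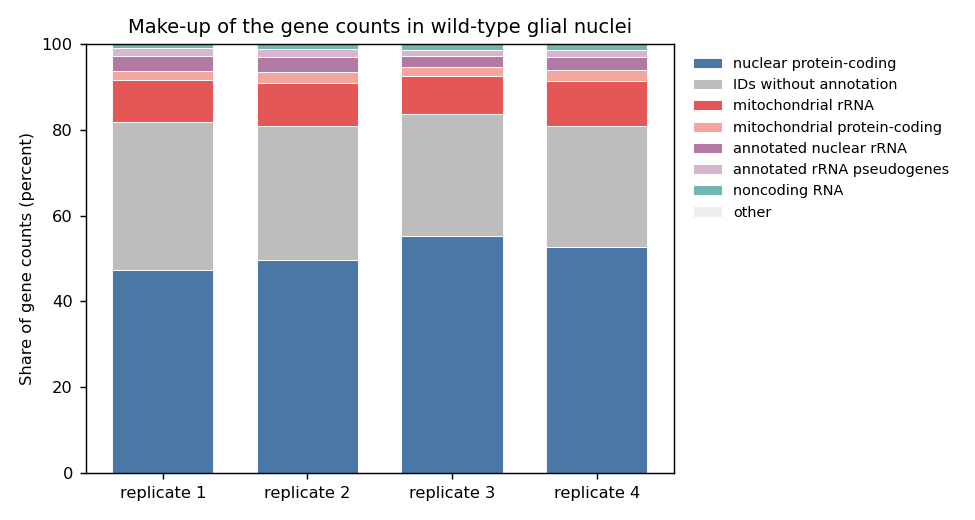
Share of the gene counts (percent, vertical axis) taken by classes of genes in each wild-type library (horizontal axis), stacked to 100. Protein-coding genes of the nuclear genome took between 47.4% (replicate 1) and 55.1% (replicate 3), and IDs without an entry in the annotation between 28.2% and 34.5%.

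Protein-coding genes of the nuclear genome took 51.2 ± 3.42% of the gene counts (SD, n = 4), with 47.4, 49.6, 55.1 and 52.8% in the 4 libraries. RNA encoded in the mitochondrial genome took 12.1 ± 0.902%, of which the rRNAs made up 9.75 ± 0.683% and the 13 protein-coding genes 2.31 ± 0.253% of the library. Mitochondrial transcripts were thus present at a similar share in all 4 preparations of nuclei, with a lowest value of 10.95% and a highest of 13.1%. The 680 IDs without an entry took 34.5, 31.4, 28.5 and 28.2%, highest in replicate 1 and lowest in replicate 4. Since these rows enter the library size, a lower share of them in a library raises the CPM of all other genes there.

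*Obp44a* (FBgn0033268, arm 2R) encodes an odorant-binding protein known for expression in glia. It was the most abundant protein-coding gene of the nuclear genome among those with an exon length. It stood at 6743, 6849, 7278 and 6835 RPKM, or 6926 ± 239 RPKM. Its CV of 3.45% was below the 10th percentile (6.33%) of genes above 1000 CPM, although 19.1% of its exon length overlaps another annotated gene. The other 50 genes named as odorant-binding proteins were far lower, and *Obp99a* at 492 ± 41.2 RPKM was the only other one above 10 RPKM. Over all 51, the median was 0.0956 RPKM, and 4 exceeded 1 CPM in all libraries (this family was chosen after its values were seen).

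Among the genes with an exon length, *Obp44a* was followed by *Idgf4*, a secreted chitinase-like growth factor, at 1355 ± 79.1 RPKM. Next came *RpS3*, a protein of the small ribosomal subunit, at 1108 ± 79.0 RPKM. FBgn0000556, an ID without an entry at 5591 ± 212 CPM, has no RPKM and could not be placed in this order. *Act5C*, a cytoplasmic actin, stood at 935, 1084, 1329 and 925 RPKM. *rost*, a membrane protein known for its part in myoblast fusion, followed at 1029 ± 167 RPKM, and *Psc*, a Polycomb group protein, at 1021 ± 248 RPKM. *alphaTub84B*, *RpS3A*, *RpL10*, *GstS1* (a glutathione transferase) and *CG2852* completed the leading nuclear genes between 764 and 888 RPKM. Of the 20 protein-coding genes with the highest RPKM, the remaining 9 are encoded by the mitochondrial genome, led by *mt:CoI* at 5750.0 ± 781 RPKM and *mt:CoIII* at 3601 ± 352 RPKM. Cytosolic ribosomal protein genes had a median of 201 RPKM, and 79 of 87 exceeded 1 CPM in all libraries.

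Measured as a share of reads, some nuclear RNAs also ranked high. *lncRNA:Hsromega* ranked 14 and *lncRNA:roX1* 68 of all rows by CPM, whereas *lncRNA:roX2* ranked 3817. *lncRNA:Hsromega*, a nuclear long noncoding RNA known for its response to heat shock, took 4439, 5762, 6513 and 7707 CPM, highest in replicate 4. *lncRNA:roX1*, an RNA of the complex that compensates the dose of the X chromosome in males, was at 150.1, 186, 284 and 236 RPKM. Its partner *lncRNA:roX2* was at 13.97, 16.2, 23.6 and 14.1 RPKM, so that *lncRNA:roX1* exceeded it by 10.7 to 16.7 times per length in the 4 libraries. *lncRNA:CR42862*, a noncoding RNA of arm 3L for which no role is given here, stood at 437 ± 68.7 RPKM.

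Some abundant genes share sequence with the labelling construct. *Msp300* (arm 2L), which encodes a nuclear envelope protein of the nesprin family, took 4074, 4894, 5822 and 6382 CPM and ranked 16 of all rows, with 75.8 ± 14.6 RPKM over its very long exons. The GFP transgene carries the KASH domain of *Msp300*, so transcripts of the transgene and of the resident gene cannot be told apart in these counts. The eye pigment transporter gene *w* was at 421 ± 45.8 RPKM (chosen after its values were seen), in a stock whose transgenes are marked with w+ and whose X chromosome carries a *w* allele. How much of the *w* signal came from the transgenes was not tested.

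Of 6 chromatin genes, the ranking named *Psc* and *upSET*, and the other 4 were picked after the values were seen because they were high, so they say nothing of chromatin genes in general. *Psc* took 8498, 6831, 4883 and 5658 CPM and *upSET*, a SET domain protein linked to histone deacetylation, took 3845, 6569, 3182 and 4028 CPM. The Polycomb group genes *ph-p* and *ph-d*, which are tandem near-copies on the X chromosome whose reads may be split or lost, stood at 1271 ± 303 and 1201 ± 302 CPM. *Hcf* on chromosome 4 took 2000.2 ± 618 CPM and *Sap130* on 3L took 1319 ± 474 CPM. Each of these 6 genes was lowest in replicate 3. The annotated rRNA rows were also lowest in replicate 3, at 2.57% of gene counts against 2.89 to 3.63% in the other 3 libraries, and their part in these levels was not tested.

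The label of the cells was checked against markers of glia and neurons. *repo* (FBgn0011701, 3R), the homeodomain factor that defines glia outside the midline and whose driver labelled the nuclei, stood at 49.4, 52.1, 54.9 and 49.3 RPKM. It ranked 652 of the 13285 protein-coding genes, above 95% of them. *elav* (FBgn0260400, X), which encodes an RNA-binding protein used as the marker of neurons, stood at 14.96, 18.6, 23.3 and 20.2 RPKM. *repo* exceeded *elav* by 3.30, 2.80, 2.35 and 2.44 times per length, and the RPKM ranges of the 2 genes did not overlap. This order rests on the division by length. In CPM, *elav* was the higher gene in every library, at 160, 199, 250 and 216 CPM against 148, 156, 165 and 148 CPM for *repo*. For *elav*, 34.2% of the exon length overlaps another annotated gene, where reads counted without strand are dropped as ambiguous, so its level may be understated.

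The 11 measured pan-glial genes had a median of 71.5 RPKM, with library medians of 59.1, 65.3, 87.3 and 74.0 RPKM, and all 11 exceeded 10 RPKM on average. *spin*, a late endosomal transporter, led them at 212 ± 13.4 RPKM. *wrapper*, an immunoglobulin protein of glia, followed at 126 ± 10.1 RPKM, and *drpr*, the engulfment receptor, was at 71.5 ± 12.2 RPKM. The lowest was *loco*, a regulator of G protein signalling, at 12.5, 13.1, 13.8 and 12.6 RPKM, beside *Galphai*, the G protein subunit it acts on, at 76.3 ± 10.4 RPKM. Over the 54 genes of the 7 glial lists together, 46 averaged above 10 RPKM. Some of them, such as *nrv2* and *loco*, stand in more than 1 of these lists. For scale, the 75th percentile of all protein-coding genes was 10.53 RPKM. Of the 26 genes of the pan-neuronal and transmitter lists together, 7 averaged above 10 RPKM.

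Genes of subperineurial glia were high, and their marker *moody* was steady when scaled by library size. *Mdr65*, an ABC transporter that pumps xenobiotics out of the brain, was at 705, 634, 584 and 698 RPKM. It ranked 16 among protein-coding genes of the nuclear genome with an exon length. *moody* (FBgn0025631, X), the G protein-coupled receptor that organises the barrier, was at 133, 138, 139 and 131 RPKM. Its ratio to *repo* was 2.70, 2.65, 2.53 and 2.65, so the 2 genes kept nearly the same proportion in every library. The 19 measured genes of the subperineurial list had a median of 64.4 RPKM and all 19 averaged above 10 RPKM. They include the septate junction components *Lac* (134 ± 14.2 RPKM), *cora* (105 ± 10.5 RPKM), *Nrx-IV* (67.7 ± 6.12 RPKM), *Cont* (64.4 ± 7.76 RPKM) and *Gli* (26.6 ± 2.03 RPKM). *Atpalpha*, the sodium pump subunit that also serves septate junctions, reached 299 ± 51.1 RPKM. *rost* is a member of this list too and its highest, at 1258, 1028, 864 and 965 RPKM. *Atpalpha* and *rost* had CVs of 17.1 and 16.2%, so not every gene of the list was steady. Septate junction genes are also used by epithelia, so their level does not belong to barrier glia alone.

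Astrocyte-like genes were high as well but differed between libraries. *alrm* (FBgn0039332, 3R), a leucine-rich repeat protein used as the marker of astrocyte-like glia, was at 147, 179, 234 and 346 RPKM. *Gat*, the GABA transporter on chromosome 4, was at 98.6, 118, 163 and 247 RPKM. *Gs2*, glutamine synthetase, was at 73.9, 77.6, 102 and 162 RPKM. In all 3 genes replicate 4 was the highest library and replicate 1 the lowest, which was not so for *moody*, *repo* or *Mdr65*. *Eaat1* (FBgn0026439, 2L), the glutamate transporter, was at 87.0, 96.9, 129.7 and 148 RPKM, and *CG1552*, listed with these genes, at 71.95, 82.9, 114 and 129 RPKM.

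Because the difference also appears as a ratio within a library, it does not rest on how libraries were scaled. *alrm* was 1.10, 1.30, 1.68 and 2.65 times *moody*, and *Gat* was 0.140, 0.186, 0.278 and 0.355 times *Mdr65*, per length in each case. Of the 10 genes in the astrocyte-like list, 8 averaged above 10 RPKM, 6 were highest in replicate 4 and 8 were lowest in replicate 1. Among all 8504 protein-coding genes with a mean of 1 CPM or more, 34.7% were highest in replicate 4, 42.0% were highest in replicate 3 and 42.3% were lowest in replicate 1. With TMM factors the shares became 29.5, 20.7, 26.4 and 23.4% for replicates 1 to 4, and 6 of the 10 astrocyte-like genes were still highest in replicate 4. Within the list, *Obp44a* and *pyr* (an FGF ligand, 52.5 ± 4.79 RPKM) did not follow *alrm*. *Obp44a* was 45.7, 38.2, 31.1 and 19.8 times *alrm*. The FGF receptor *htl* stood at 11.2 ± 1.39 RPKM and the ligand *ths* at 2.31 ± 0.389 RPKM. In pooled tissue, a larger share of astrocyte-like nuclei in a library and more RNA per nucleus cannot be told apart.

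**Figure D2:**
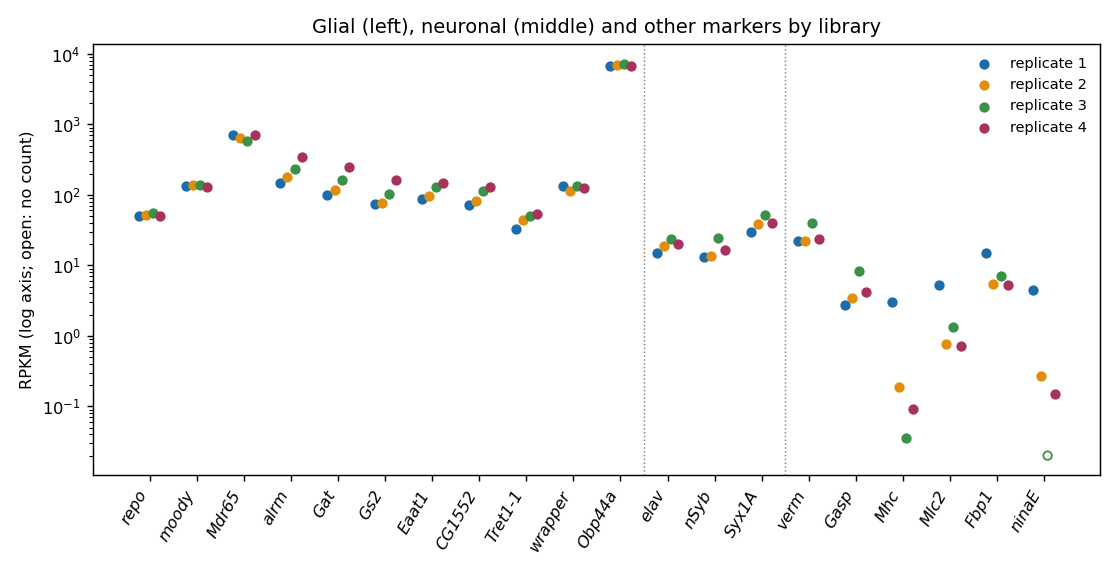
RPKM (log axis) of glial genes (left of the first dotted line), neuronal genes (middle) and genes of trachea, muscle, fat body and photoreceptors (right) in the 4 wild-type libraries, 1 point per library. *repo*, *moody* and *Obp44a* lie within narrow bands, *alrm*, *Gat* and *Gs2* are highest in replicate 4, neuronal genes and *verm* are highest in replicate 3, and *Mhc*, *Mlc2*, *Fbp1* and *ninaE* are highest in replicate 1. The open circle is a library with no count.

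The other glial lists had lower medians, with 63.7 RPKM for cortex glia. Of 4 measured cortex glia genes, *wrapper* and *Cyp4g15* (a cytochrome P450 at 95.0 ± 17.3 RPKM) were high, *wun2*, a lipid phosphatase, was at 32.3 ± 4.96 RPKM, and *spz3*, a neurotrophin-like ligand, was at 0.633 ± 0.201 RPKM. The perineurial list had a median of 26.9 RPKM, led by the citrate transporter *Indy* at 73.9 ± 10.2 RPKM and the trehalose transporter *Tret1-1* at 32.5, 44.6, 50.4 and 54.3 RPKM. *Tret1-1*, like *alrm*, was lowest in replicate 1 and highest in replicate 4. Ensheathing and engulfment genes had a median of 36.4 RPKM, with *ced-6*, the adaptor of the *drpr* receptor, at 46.2 ± 2.79 RPKM, *mbc* at 41.3 ± 3.50 RPKM and *axo* at 36.4 ± 6.72 RPKM. *Eaat2*, the other transporter of the family and the one listed for ensheathing glia, was at only 4.95 ± 0.501 RPKM, which is 18.1 to 27.1 times below *Eaat1* in the 4 libraries.

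Genes listed for lamina, eye disc and wrapping glia had a median of 14.02 RPKM. *nrv2*, the sodium pump beta subunit, was at 56.3 ± 5.35 RPKM and *pdm3*, a POU factor, at 26.9 ± 4.76 RPKM, while *bi*, *dpp* and *svp* lay between 14.02 and 17.3 RPKM. *gcm*, the factor that starts glial fate, was at 1.77, 2.19, 2.11 and 1.94 RPKM, and its relative *gcm2* at 0.386 ± 0.0768 RPKM. The genes that begin gliogenesis were thus measured well below *repo*, the gene that they activate. *zyd*, listed for cortex glia, was not analysed here.

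**Figure D3:**
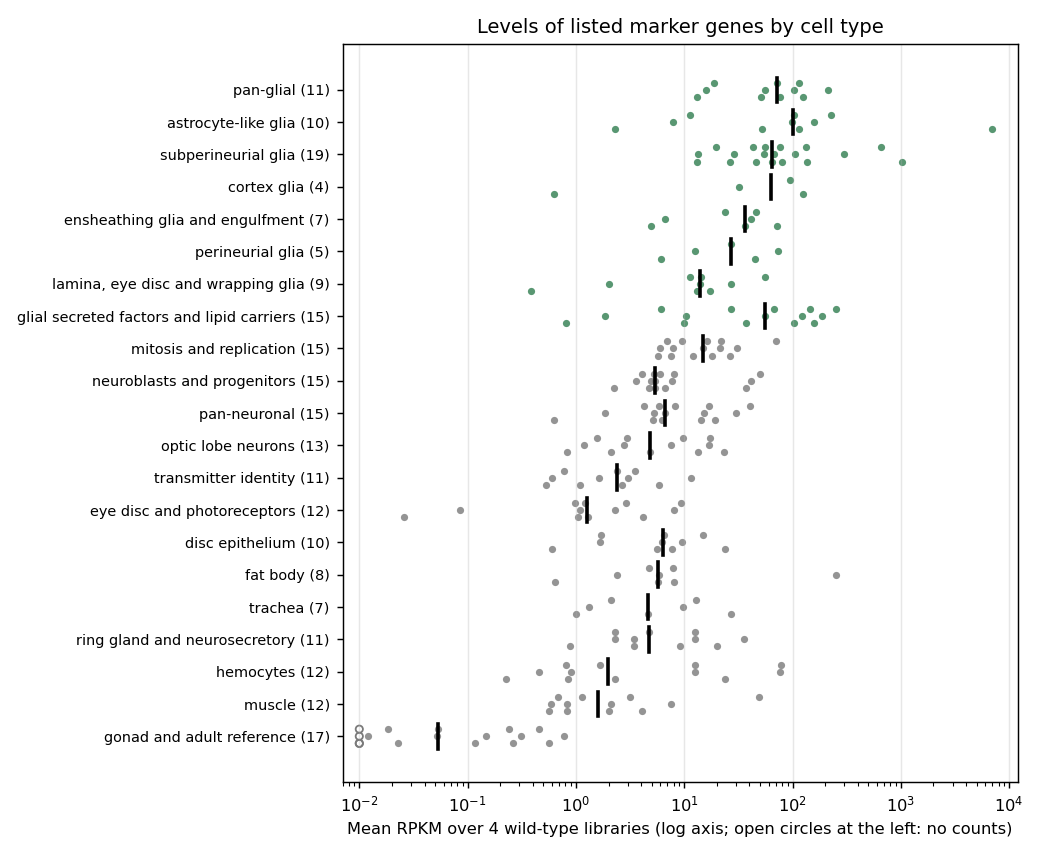
Mean RPKM over the 4 wild-type libraries (log axis) of each measured gene in 21 marker lists, 1 point per gene, with the list median as a black bar and the number of genes in brackets. Glial lists (green) have medians from 14.02 to 102 RPKM, lists of other cell types (grey) from 1.26 to 14.8 RPKM, and the gonad and adult list 0.0534 RPKM. Open circles mark genes with no count.

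Secreted products and lipid carriers formed a well expressed group, with 12 of 15 genes above 10 RPKM on average and a median of 56.0 RPKM. *apolpp*, the precursor of the apolipophorins, was at 217, 239.5, 295 and 257 RPKM, and with its long exons it took 2968 CPM on average. *Npc2a*, a sterol carrier, was at 186 ± 8.52 RPKM and the lipocalin *NLaz* at 123 ± 11.9 RPKM. *fabp*, a fatty acid binding protein, was at 146 ± 7.88 RPKM, though 72.1% of its exon length overlaps another gene. The TGF-beta family ligands *myo* (158 ± 26.5 RPKM), *daw* (66.9 ± 20.8 RPKM) and *mav* (10.4 ± 1.85 RPKM) and the insulin-like peptide *Ilp6* (56.0 ± 4.23 RPKM) were all detected in every library. *Mp*, a collagen XV/XVIII homologue, was at 8.01, 8.23, 12.4 and 11.5 RPKM.

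Neuronal genes were lower, yet above genes that should be silent. The 15 measured pan-neuronal genes had a median of 6.64 RPKM, with library medians of 5.60, 5.82, 8.003 and 7.22 RPKM. The pan-glial median was 10.3 to 11.2 times the pan-neuronal median within a library, per length. With no division by length, the 2 medians lay closer, at 201 CPM (pan-glial) and 68.6 CPM (pan-neuronal). All 15 genes were counted in every library, and their summed level was 1243, 1453, 2045 and 1576 CPM. *Syx1A*, a syntaxin of vesicle fusion that is not limited to neurons, led at 30.2, 38.6, 52.0 and 40.2 RPKM. *nSyb*, neuronal synaptobrevin, was at 13.2, 13.7, 24.1 and 16.4 RPKM, *Syt1* at 8.22 ± 2.23 RPKM and the active zone protein *brp* at 5.10 ± 1.36 RPKM. Of these 15 genes, 13 were highest in replicate 3, against 42.0% of all protein-coding genes, and 12 were lowest in replicate 1, against 42.3%. With TMM factors, 12 were highest in replicate 3. *elav* relative to *repo* ran from 0.303 in replicate 1 to 0.425 in replicate 3.

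Genes that define transmitter types were lower again, at a median of 2.40 RPKM. The vesicular glutamate transporter *VGlut* was the highest at 11.5 ± 1.07 RPKM, and *VGAT* and *Gad1*, of GABA neurons, were at 5.79 ± 0.694 and 3.51 RPKM. *ChAT*, the acetylcholine enzyme, was at 2.69 ± 0.372 RPKM. The monoamine genes *SerT* and *ple* (tyrosine hydroxylase) were at 0.607 ± 0.241 and 0.525 ± 0.344 RPKM, yet still counted in every library. The source of these neuronal transcripts was not tested.

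The study used marker lists of its own for these libraries, which are therefore no independent check. Its 9 glial markers had a median of 76.3 RPKM, against 5.18 RPKM for its 12 markers of neurons and precursors. Within the neuronal list, *pdm3*, *elav*, *Appl* and *svp* averaged above 10 RPKM. *pdm3* and *svp* were also placed among the glial genes above, and the lowest, *gcm2*, was at 0.386 RPKM. Other members lay between, namely *dac* at 9.77, *Alk* at 5.38, *erm* at 4.97, *robo3* at 3.89, *sim* at 2.10, *jeb* at 1.87 and *NetA* at 1.21 RPKM on average.

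Transcripts of division and of neural precursors were counted in all libraries, and the cells they came from were not tested. The 15 mitosis and replication genes had a median of 14.8 RPKM, and all exceeded 1 CPM in every library. *PCNA*, the replication clamp, was at 69.2, 62.0, 73.8 and 77.0 RPKM, *CycA* at 30.5 ± 3.81 RPKM, *Cdk1* at 26.4 ± 3.03 RPKM and *CycB* at 14.8 ± 2.58 RPKM. Neuroblast genes had a median of 5.34 RPKM. The most specific of them were low, with *dpn* at 7.79 ± 0.764, *wor* at 5.91 ± 0.522 and *ase* at 5.34 ± 0.360 RPKM. For *dpn*, 59.3% of the exon length overlaps another gene, so its level may be understated. The highest were *brat* (50.02 ± 7.30 RPKM), *Syp* (41.6 ± 8.36 RPKM) and *pros* (37.3 ± 9.02 RPKM), which also act in other cells.

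Optic lobe genes were near the level of the neuronal list, and eye disc genes were lower. Optic lobe neuron genes had a median of 4.82 RPKM, led by *slp1* (23.1 ± 2.27 RPKM), *hth* (17.3 ± 4.54 RPKM) and *toy* (17.0 ± 2.03 RPKM). Photoreceptor and eye disc genes had a median of 1.26 RPKM and none averaged above 10 RPKM. *sev*, the receptor kinase of the R7 cell, was the highest at 9.27, 9.06, 9.46 and 9.29 RPKM, and *boss*, its ligand, had 3 counts over all libraries. *ninaE*, the opsin of the outer photoreceptors, was at 4.45, 0.272, 0 and 0.148 RPKM, so that 81 of its 87 counts came from replicate 1. Imaginal disc genes had a median of 6.33 RPKM, and 10 of 10 were highest in replicate 3, or 7 of 10 with TMM factors. Of all protein-coding genes, 42.0% were highest in replicate 3, or 26.4% with TMM factors.

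Signs of other tissues were low and differed by library. The muscle list had a median of 1.59 RPKM, and *Tm1*, a tropomyosin also made outside muscle, was its only member above 10 RPKM (49.4 ± 5.40 RPKM). *Mhc*, the muscle myosin, was at 27.2, 1.73, 0.327 and 0.820 CPM. Replicate 1 was thus over 15 times every other library (312 counts against 16, 3 and 7). *Mlc2*, the myosin light chain, followed with 12.2, 1.73, 3.05 and 1.64 CPM. *Act79B*, a muscle actin, had 64 counts in replicate 1 and none elsewhere (chosen after its values were seen). Of 11 muscle genes with a mean of 1 CPM or more, 7 were highest in replicate 1, against 14.7% of all protein-coding genes. With TMM factors, 7 were highest there as well, against 29.5%. The summed list, carried by *Tm1*, ran from 727 to 899 CPM. Every measured gene of the list was counted, *Mlc1* in all libraries but replicate 3.

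Most fat body genes were also highest in replicate 1. *Fbp1*, a receptor for storage proteins, was at 51.1, 18.6, 24.7 and 18.2 CPM, and 6 of the 8 genes were highest in replicate 1. Of all protein-coding genes, 14.7% were highest there. With TMM factors, the count was again 6 of 8, against 29.5%. The larval serum proteins were at 7.95 ± 2.07 (*Lsp1gamma*), 5.84 ± 1.64 (*Lsp1beta*) and 2.41 ± 0.999 RPKM (*Lsp1alpha*). These genes are among the most strongly expressed of the larval fat body. *apolpp*, also on this list, was the only one of its 8 measured genes above 10 RPKM and made up most of the summed level of 2693 to 3550.3 CPM. For *Lsp2* (5.69 ± 2.02 RPKM), 84.6% of the exon length overlaps another gene.

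Hemocyte markers split by role, with 5 of 12 above 10 RPKM and a list median of 1.99 RPKM. *SPARC*, a matrix protein, and *crq*, a scavenger receptor, were at 78.7 ± 3.03 and 76.9 ± 11.7 RPKM, and *Col4a1*, a collagen of basement membranes, at 23.6 ± 5.44 RPKM. The genes closer to blood cells were low, with *Hml* at 2.31 ± 0.933 RPKM, *He* at 0.453 ± 0.307 RPKM and *NimC1* at 0.228 ± 0.175 RPKM. Matrix and scavenger genes are made by several cell types, glia among them.

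Most tracheal genes were highest in replicate 3. *verm* and *serp*, chitin deacetylases of the tracheal lumen, were at 22.04, 21.8, 39.5 and 23.8 RPKM (*verm*) and 6.80, 7.94, 14.8 and 9.50 RPKM (*serp*). *Gasp*, a chitin binding protein, was at 2.74, 3.44, 8.24 and 4.18 RPKM, and 6 of 7 tracheal genes were highest in replicate 3. Of all protein-coding genes, 42.0% were highest there. With TMM factors, the count was again 6 of 7, against 26.4%. The summed tracheal list was at 213, 235, 416 and 278 CPM, with no gene at 0. *trh*, the factor that defines trachea, was at 1.31 ± 0.345 RPKM. *Crys*, a protein of the corneal lens, had 40 counts in replicate 3 and none in the others (chosen after its values were seen).

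Neurosecretory genes were seen in every library. *Ilp2*, an insulin-like peptide of a small set of brain cells, was at 39.7, 21.7, 26.7 and 53.5 RPKM and *Ilp5* at 17.2, 15.1, 17.3 and 30.4 RPKM, both highest in replicate 4. *sad*, of ecdysone synthesis in the ring gland, was at 12.6 ± 2.85 RPKM and highest in replicate 3. The myosuppressin gene *Ms* was at 76.4, 27.9, 28.8 and 31.9 CPM, highest in replicate 1.

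Genes that should be silent gave the background. The 17 measured genes of gonads and adult sense organs had a median of 0.0534 RPKM, none exceeded 1 CPM in all 4 libraries, and the highest was *betaTub85D*, a testis tubulin, at 0.773 ± 0.162 RPKM. This median rests on few counts, as it was 0.0304 RPKM without replicate 4 and 0.102 RPKM with rRNA, mitochondrial and unannotated rows left out of the totals. *ocn*, *Cp36*, *Cp38* and *Mst84Da* had no count in 38434554 counts over the 4 libraries, which allows a level of up to 0.0781 CPM (3 counts of the total, counting error only). For *Mst84Da*, 75.1% of the exon length overlaps another gene, so this limit may understate its level. *SP* and *nanos* had 2 counts each, *Cp15* and *Mst87F* 3 each, and *Acp26Aa* and *aly* 1 each. The transmitter genes *SerT* and *ple* were thus near the top of this range, whereas every pan-neuronal gene except *Rbp9* (0.628 ± 0.0516 RPKM) lay above it. Genes used by every cell gave the other end, with a median of 176 RPKM over 9 measured housekeeping genes, among them *Gapdh2* (398 ± 50.9 RPKM) of glycolysis. The dosage compensation and sex determination list had a median of 9.06 RPKM over 11 genes. Hox genes, which pattern the nerve cord along its length, had a median of 1.55 RPKM, from *Scr* at 5.67 ± 0.389 RPKM down to *Abd-B* at 0.122 ± 0.0118 RPKM.

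**Figure D4:**
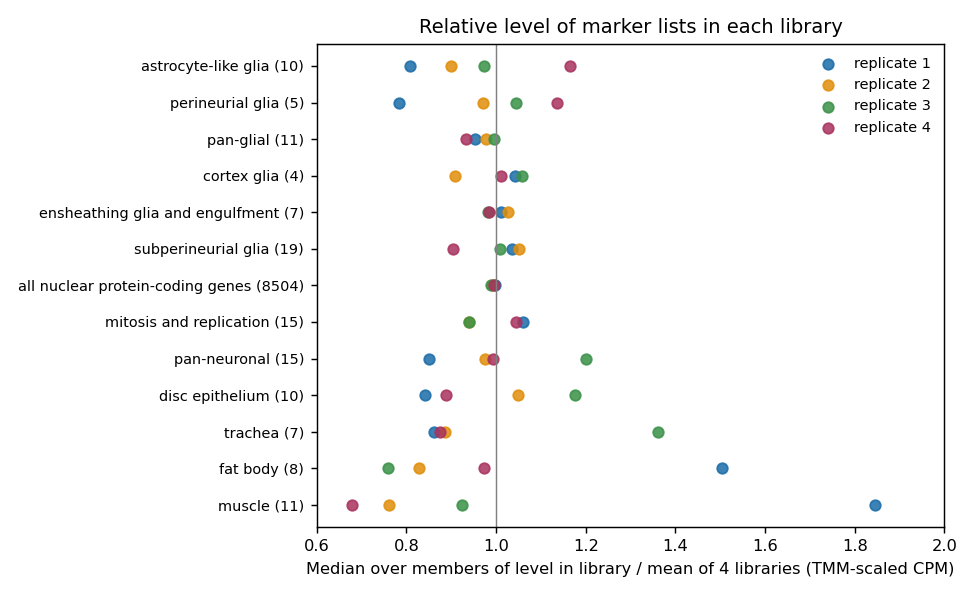
Relative level of marker lists in each wild-type library, as the median over list members of the level in the library divided by its mean over the 4 libraries (TMM-scaled CPM, members of at least 1 CPM on average, their number in brackets). The astrocyte-like list runs from 0.808 in replicate 1 to 1.16 in replicate 4, the pan-neuronal and tracheal lists are highest in replicate 3 (1.20 and 1.36), and the fat body and muscle lists are highest in replicate 1 (1.504 and 1.85), while all protein-coding genes together lie between 0.990 and 0.998.

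The lists did not all have the same highest library. On the library size scale, the median astrocyte-like gene was at 0.739, 0.838, 1.04 and 1.23 times its mean, against 0.921, 0.930, 1.07 and 1.06 for all 8504 protein-coding genes. The median perineurial gene took the same order of libraries, at 0.715, 0.906, 1.12 and 1.19 times its mean. The median pan-neuronal gene was at 0.778, 0.917, 1.28 and 1.04 times its mean. The median subperineurial gene lay between 0.958 and 1.09, and with TMM factors between 0.904 in replicate 4 and 1.05 in replicate 2. The median muscle gene was at 1.73, 0.723, 1.006 and 0.746 times its mean. With 4 libraries and no second group, these are descriptions of the libraries. The part of neuronal, tracheal, fat body and muscle RNA in the differences between libraries was not tested.

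Over all genes the spread between libraries was small. The common biological coefficient of variation, edgeR's estimate of the spread beyond counting noise, was 0.137 over the 8608 genes. The median CV was 24.1% for genes of 1 to 10 CPM, of which counting alone gives about 16.1%, 13.3% for 10 to 100 CPM, 12.4% for 100 to 1000 CPM and 14.02% above 1000 CPM. The steadiest genes of at least 100 CPM were *Kap-alpha3*, an importin, at 157, 152, 156 and 155 CPM, and *CtsK1*, a cathepsin protease, at 407, 415, 416 and 421 CPM. *Ctl1* (a choline transporter-like protein), *Septin1*, *jumu* (a forkhead factor), *CtsL1* (a cathepsin), *capt* (an actin regulator), *CG1998*, *CG3164* and FBgn0051150 completed this list of 10, all with a CV under 3%. *moody*, at 2.87%, was nearly as steady. These CVs are of CPM scaled by library size, on which the median protein-coding gene was at 0.921, 0.930, 1.07 and 1.06 times its mean. A gene flat on that scale thus fell relative to the median gene from replicates 1 and 2 to replicates 3 and 4. CVs with TMM factors were not computed.

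The most variable genes of at least 20 CPM on average and 10 CPM in every library had CVs of 44.6 to 59.8%. Replicate 4 was the highest library for 7 of them, against 34.7% of all protein-coding genes with a mean of 1 CPM or more. These were *CG10226* (22.3, 21.2, 17.0 and 54.1 CPM), *MFS9*, *Tep4* (a thioester immune protein), *Ca-Ma2d* (a calcium channel subunit), *Pepck1* (gluconeogenesis, its exons wholly overlapped by another gene), *Proc-R* (a proctolin receptor) and *Ldh* (lactate dehydrogenase, 19.1, 19.4, 18.4 and 40.8 CPM). *Ms* and *Fbp1* were highest in replicate 1 and *Cht6*, a chitinase, in replicate 3 (16.3, 22.6, 47.5 and 21.7 CPM).

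**Figure D5:**
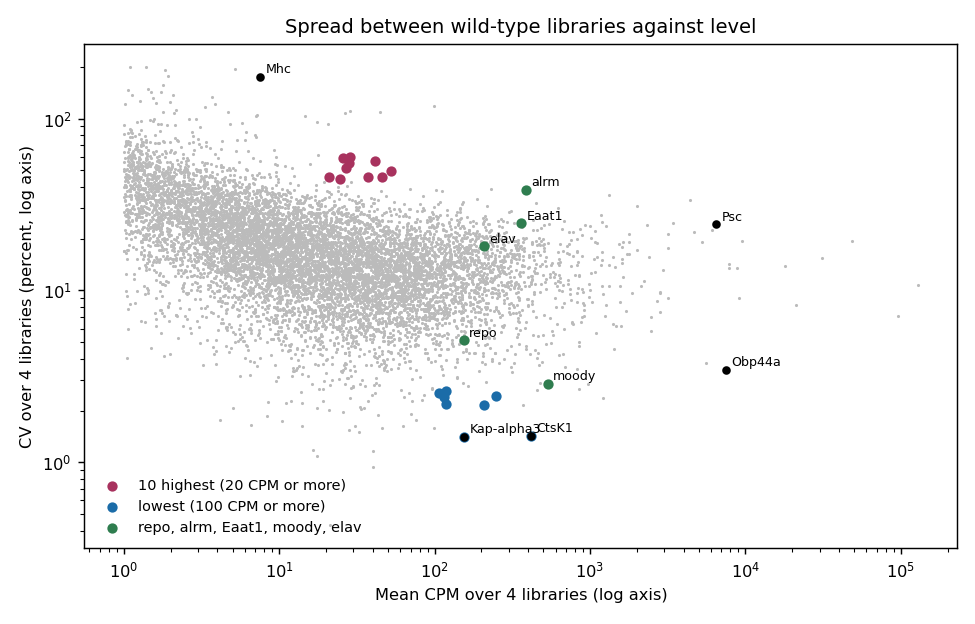
CV over the 4 wild-type libraries (percent, log axis) against mean CPM (log axis) for every gene of at least 1 CPM on average, 1 grey point per gene. *repo* and *moody* lie near the lower edge with CVs of 5.13 and 2.87%, *alrm* (38.4%) and *Eaat1* (24.6%) near the upper edge, *Obp44a* (3.45%) among the most abundant genes, and *Mhc* (175%) above most genes of its level. The 10 most variable genes (red) have CVs of 44.6 to 59.8%, and 8 of the 10 steadiest, those with an entry in the annotation, are blue or named in black.

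Some genes were far higher in 1 library than in the others. Among genes with at least 30 counts in a library and over 4 times the CPM of every other, 12 were highest in replicate 1, 2 in replicate 2, 2 in replicate 3 and 10 in replicate 4. Those of replicate 1 include *Mhc*, *Mlc2*, *Act79B*, *Prm* and *Mf* of muscle, *ninaE*, and the juvenile hormone binding family members *Jhbp13* and *Jhbp14*. Those of replicate 2 are *betaTry*, a trypsin, and *CG12374*. In the other direction, 4 genes had over 4 times less CPM in replicate 1 than in every other library, and none in replicates 2 to 4 did. The largest such difference was in *Muc68Ca*, a mucin, at 1.22, 42.7, 84.3 and 268 CPM. *CG7465* was at 0.0873, 0.432, 0 and 20.2 CPM, so that 172 of its 177 counts came from replicate 4 (genes of this paragraph outside the lists were chosen after their values were seen).

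By chromosome, the small chromosome 4 stood apart. Its 78 protein-coding genes had a median of 26.6 RPKM and 76 (97.4%) exceeded 1 CPM in all libraries. The 5 large arms had medians of 1.96 to 3.33 RPKM, with 56.1 to 65.9% of genes above 1 CPM in all libraries. The median on chromosome 4 was 21.4, 25.7, 31.3 and 28.0 RPKM in the 4 libraries. *Gat*, *apolpp*, *myo* and *Hcf*, described above, lie on it. The X chromosome, at 3.33 RPKM, had the highest median of the large arms, and Y-linked rows took 0.00101 ± 0.000292% of the counts.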

How the data were processed

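For the deposited files, the authors trimmed reads with Trimmomatic 0.32, aligned them to BDGP5 with TopHat2 2.0.13 and Bowtie2 2.2.4, and counted uniquely placed reads per gene with HTSeq 0.6.1, ignoring strand. The libraries were made from amplified double-stranded cDNA. The values are raw counts for 15682 gene IDs. Entries that name no gene were left out, of which alignments of repeated reads made up 95.1 to 95.9% of all entries. Among uniquely placed reads, those in no counted feature made up 12.1 to 17.5% and those in overlapping genes 2.95 to 3.18%. HTSeq was run with default settings, which count exons, so reads within introns fall among those in no feature.

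CPM used the sum of gene counts per library (8535880 to 11459317). RPKM used merged exon lengths of the BDGP6 annotation, which was matched by FlyBase ID (15002 IDs matched) and also gave symbols, biotypes and chromosome arms. A further 48 IDs were named from the study's gene tables, and no coordinates are given because the builds differ. Of 281 listed genes, 257 had a value. The 4 labelled replicates were biological replicates per the study's methods, and no test between groups was run. The mutant libraries and the authors' tables of fold changes and p-values were not used for levels.

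The named genes are the 20 highest by CPM, the 20 protein-coding genes highest by RPKM, and the 10 most and least variable at set minimum levels. In each of 28 lists, they are also the 5 highest, the first 2, and those with 0 to 3 counts. The members and lists were chosen with earlier results of these data known. Analysis used R 4.3.3, edgeR 4.0.16, DESeq2 1.42.0, Python 3.11.15 and pandas 2.3.3, and the estimate of dispersion was tested on simulated data.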

Additional observations from a re-analysis of the deposited data

Results flagged for a closer look

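Among 190 named genes with at least 20 counts, 12 had a single library whose gap to the nearest other library exceeded Dixon's critical value for the range of 4 libraries. Chance gives about 1 in 20, here 9.5. Replicate 1 stood apart in *Mhc* (27.2 CPM against 0.327 to 1.73 CPM in the others) and *Ms* (76.4 against 27.9 to 31.9 CPM). Replicate 3 stood apart in *Syp* (606 against 406 to 439 CPM), *verm* (93.5 against 51.7 to 56.4 CPM), *obst-A*, a chitin binding protein (31.8 against 21.2 to 22.5 CPM), and *sad* (29.9 against 19.0 to 20.8 CPM). It was the low one in *betaTub85D* (0.981 against 1.52 to 1.62 CPM). Replicate 4 stood apart in *Ilp5* (14.5 against 7.23 to 8.29 CPM), *CG10226* (54.1 against 17.0 to 22.3 CPM), *MFS9* (48.1 against 16.2 to 19.5 CPM), *Ca-Ma2d* (63.0 against 26.5 to 30.6 CPM) and *Ldh* (40.8 against 18.4 to 19.4 CPM). *CG10226*, *MFS9*, *Ms*, *Ca-Ma2d* and *Ldh* were named for their spread, so that they stand here was partly set by that choice.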

How the results depend on the processing

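No paired analysis was possible because only 1 group was described and no test was run. Scaling by TMM or DESeq2 size factors moved neither the count of detected genes (8650 with both) nor the list medians beyond the spread between libraries. Counting entries that name no gene into the totals, which counts each alignment of a repeated read, left 3124 genes above 1 CPM, 1.39 and 2.03% of counts in the 10 and 100 leading rows, and medians of 2.65 (pan-glial), 0.247 (pan-neuronal) and 0.00202 RPKM (gonad and adult). Without annotated small and ribosomal RNA and mitochondrial rows the shares were 31.1 and 48.2%, and the pan-glial and pan-neuronal medians 84.2 and 7.82 RPKM. Without IDs lacking an entry as well, an alternative added after the data were seen, the shares were 8.32 and 25.8% and the medians 136, 12.6 and 0.102 RPKM. A limit of 10 CPM left 5101 genes. With no division by length, the pan-glial and pan-neuronal medians were 201 and 68.6 CPM, and with the mean in place of the median the pan-neuronal and gonad lists stood at 11.98 and 0.178 RPKM. The biological coefficient of variation was 0.150 with no filter and 0.118 above 10 CPM, and from 0.122 (without replicate 1) to 0.150 (without replicate 2) when libraries were left out in turn. Leaving out 1 library gave 8640 to 8745 genes, shares of 36.4 to 39.1% and 53.8 to 56.4%, and medians of 66.2 to 75.6, 6.19 to 6.99 and 0.0304 to 0.0712 RPKM. Depth limits statements on genes under about 1 CPM, which rest on at most 11.5 reads a library.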

Other observations

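Further gene families, all chosen after their values were seen, were each led by a few members. Among innexins, which form gap junctions in insects, the highest were *ogre*, at 217, 217, 245 and 251 RPKM, and *Inx2*, at 149, 153, 171 and 166 RPKM. The other innexins were far lower, with *Inx7* at 6.22 ± 0.751 RPKM and *zpg*, known from the germ line, at no count in any library.

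Of 9 genes named as cathepsins, which are mostly lysosomal proteases, 5 exceeded 1 CPM in all libraries. This is near the share among all protein-coding genes of the nuclear genome, 60%. *cathD* stood at 461, 498, 458 and 499 RPKM, and *CtsB* averaged 164 RPKM. The tetraspanin *Tsp42Ee* was at 586, 562, 538 and 569 RPKM, while the median of 34 tetraspanins was 0.907 RPKM. Glutathione transferases were led by *GstS1* (788 ± 129 RPKM), *GstD1* (289 ± 29.6 RPKM) and *GstE12* (270.0 ± 47.6 RPKM). Of 35, 23 exceeded 1 CPM in all libraries, against the same 60% of all protein-coding genes. The small heat shock protein gene *Hsp23* stood at 689 ± 44.2 RPKM and was counted within a narrow range in the 4 libraries.

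Chemoreceptor genes were mostly near background, with medians of 0.0471 RPKM (59 odorant receptors), 0.0689 RPKM (58 gustatory receptors) and 0.0455 RPKM (60 ionotropic receptors). A pair of them stood apart in every library, *Gr47a* at 45.7, 41.2, 48.0 and 57.0 RPKM and *Ir47a* at 27.9, 25.3, 28.8 and 36.8 RPKM. Subunits of SAGA, the chromatin complex that the series is about, had a median of 5.78 RPKM over 13 genes. Among the deubiquitinase module, *not* was at 9.02, 9.68, 9.70 and 8.94 RPKM, *Sgf11* at 6.65, 4.99, 4.36 and 8.64 RPKM, and *e(y)2* at 1.02 ± 0.426 RPKM. The value of *e(y)2* rests on only 3, 4, 7 and 5 counts.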
